A study of Mus musculus with 6 samples.

Results

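The cohesin, loader and CTCF genes are the 10 rows of the deposited gene table, out of 55401, whose symbol is Smc1a, Smc3, Rad21, Stag1, Stag2, Nipbl, Mau2, Wapl, Pds5a or Ctcf. Rows were matched by symbol, and the list of symbols was drawn up with earlier results of these data known. All 10 were found once each, and all 10 were among the 17573 genes that passed the filter on low counts. They were measured in RNA that mouse embryonic stem cells (129/Ola line) had built with 4-thiouridine (4sU), a uridine analogue that allows newly made transcripts to be pulled down. The zinc finger protein ZFP207 of these cells carries an auxin-inducible degron (AID), a tag through which the plant hormone IAA sends the protein to the proteasome. The control group, 3 libraries, received no IAA (treatment label AID 0h, genotype label WT), and the depleted group, 3 libraries, had IAA for 5 h (AID 5h, genotype label naming ZFP207 loss). Both groups bear the ZFPAID title and the treatment text speaks of ZFP207AID cells, so both were read as degron cells, although the WT label leaves this unsettled. IAA was given to the depleted cells only, so IAA and ZFP207 loss cannot be told apart, and whether the line is 1 clone is not given in the sources used here. The series addresses how ZFP207 acts on U1 snRNP, the particle that marks 5' splice sites.

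Cohesin is a ring-shaped protein complex that holds sister chromatids together and extrudes chromatin loops. SMC1A and SMC3 form the arms of the ring, RAD21 closes it, and STAG1 or STAG2, which are alternative subunits, bind to RAD21. NIPBL and MAU2 load the ring and drive extrusion, WAPL with PDS5A releases it, and the zinc finger protein CTCF stops it at loop boundaries. In embryonic stem cells this machinery shapes the contacts between promoters and enhancers, and cells cannot divide faithfully without it.

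Values per library are always given in the order of replicates 1, 2 and 3. The libraries held 14336811 to 25916628 estimated counts. The members took 1122 to 12068 counts per library, and together 0.275 ± 0.0302% of all counts in controls and 0.255 ± 0.0297% after IAA (mean ± SD, n = 3). The 8 embryonic stem cell markers had counts in all 6 libraries. Their summed level was 4399 to 5089 CPM in controls and 4379 to 5297 CPM after IAA. For these marker sums, CPM are counts divided by the library total and scaled up by a fixed constant. For single genes they are also TMM-normalised, a scaling between libraries. The sums of the 7 fibroblast or feeder markers ran from 2.90 to 10.9 CPM, with Col3a1 and Postn at 0, and those of the 5 primitive endoderm markers from 2.55 to 6.49 CPM. The 6 markers of the epiblast or of early differentiated cells summed to 17.2 to 31.7 CPM, with T at 0. Zfp207 RNA itself was 545, 1116 and 548 CPM in controls and 695, 1467 and 596 CPM after IAA. The degron acts on the protein, so these values do not check the depletion. Libraries that share a replicate number deviated together, so an edgeR fit with the replicate number as a block (paired fit) is given beside the fit without it (unpaired fit). For Zfp207 RNA the paired edgeR fit called a rise of 0.29 on the log2 scale (SE 0.072, adjusted p = 0.0196). The unpaired edgeR fit did not call it (adjusted p = 0.823).

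After 5 h of IAA most of these genes kept labelled RNA levels within the spread between replicates, and Stag2 was the member that fell once the libraries were paired. The unpaired edgeR fit called 0 of the 10 members, where it called 139 of all 17573 genes (0.791%) at an adjusted p under 0.05. In it, 0 members had an unadjusted p under 0.05, against 1914 of all 17573 genes. DESeq2 without the block also called 0 members, against 3.65% of all genes. The paired edgeR fit called 1 of 10, against 12.9% of all genes. In that fit 3 members had an unadjusted p under 0.05, against 4899 of all 17573 genes. DESeq2 with the block called 2, Stag2 and Wapl, both lower, against 7.97% of all genes called lower. The members' median log2 fold change was -0.043 in the unpaired fit, with 7 members below 0 and 3 above, and the median of all genes tested was 0.024. The share of members called was therefore near the background in both edgeR fits. The CPM of the control and depleted groups overlapped for all 10 members, while 11.8% of all genes lay wholly lower and 6.94% wholly higher after IAA.

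**Figure D1:**
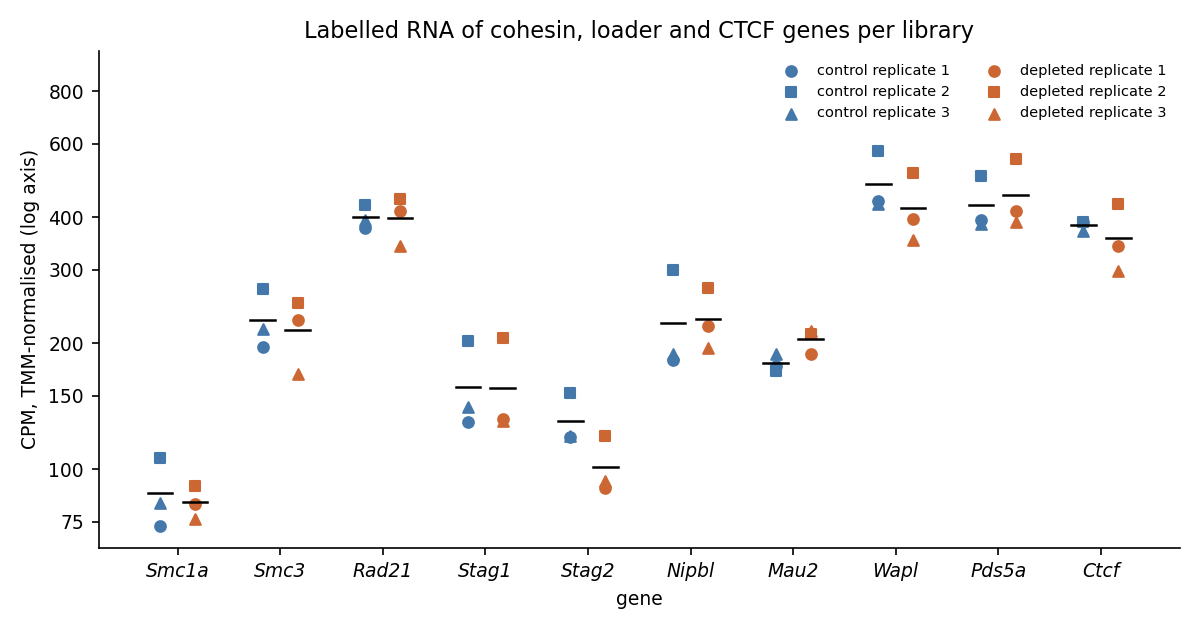
Labelled RNA of the 10 members, in TMM-normalised CPM on a log axis, with a symbol for each library (blue control, orange depleted; circle, square and triangle for replicates 1, 2 and 3) and a black bar at each group mean. The groups overlap for every gene, and the squares of replicate 2 lie highest in both groups for every gene except Mau2 and Ctcf.

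The genes of the ring itself showed no difference beyond replicate spread. Rad21, which encodes the subunit that separase cleaves to free sister chromatids (chromosome 15, 51962604 to 51993538, mm10), stood at 378, 428 and 394 CPM in controls and at 415, 442 and 342 CPM after IAA. The highest and the lowest of these 6 values were thus both from depleted libraries. In the unpaired edgeR fit it changed by -0.0025 on the log2 scale (SE 0.15, adjusted p = 0.996), which is -0.176% with a 95% interval from -20.5% to 25.3%. In the paired fit the interval ran from -11.7% to 11.9%.

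Smc3, an arm of the ring that is acetylated to lock cohesion (chromosome 19, 53600396 to 53645831), had 196, 270 and 216 CPM in controls and 227, 249.7 and 169 CPM after IAA. Its direction differed between the pairs, with log2 differences of 0.21, -0.11 and -0.36 in pairs 1 to 3. The paired edgeR fit gave a log2 fold change of -0.084 (SE 0.098, adjusted p = 0.641).

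Smc1a, the other arm, is X-linked (chromosome X, 152016428 to 152061973). It had 73.5, 107 and 83.3 CPM in controls against 82.8, 91.5 and 76.0 CPM after IAA, so that the depleted values lay inside the control range. Paired, the edgeR log2 fold change was -0.060 (SE 0.100, adjusted p = 0.758), with a 95% interval from -17.4% to 11.5% on the linear scale.

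Of the genes for the alternative STAG subunits, Stag2 fell in the paired fit and Stag1 was not called. Stag2, an X-linked gene (chromosome X, 42149297 to 42277186), had 120, 152 and 120 CPM in controls and 90.5, 120 and 94.0 CPM after IAA. Each depleted library lay below the control of its own number, while depleted replicate 2 reached the level of the lower controls. The log2 differences of the pairs were -0.40, -0.34 and -0.36, a narrow range beside the spread between replicates. The log2 fold change was -0.36 (SE 0.17) in the unpaired edgeR fit, which did not call it (adjusted p = 0.493), and -0.37 (SE 0.081) in the paired edgeR fit, which did (adjusted p = 0.0111). On the linear scale the paired value is a change of -22.5%, with a 95% interval from -31.4% to -12.4%. Of all genes tested, 24.1% were lower in all 3 pairs and 7.9% were called lower in the paired edgeR fit. The paired call was lost without replicate 1 (edgeR adjusted p = 0.0716) and kept without replicate 2 (0.0319) or replicate 3 (0.0484).

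Stag1, the paralog that favours telomeric cohesion and CTCF-bound cohesin (chromosome 9, 100597709 to 100958544), had 130, 202 and 141 CPM in controls and 132, 206 and 130 CPM after IAA. Replicate 2 was the highest library of both groups, and the group means, 158 ± 39.0 and 156 ± 43.4 CPM (SD, n = 3), were close. Paired, the edgeR log2 fold change was -0.020 (SE 0.078, adjusted p = 0.910), with a 95% interval from -12.3% to 10.9%. A cut of the size seen for Stag2 lies outside that paired interval but inside the unpaired one, which ran from -31.4% to 43.1%.

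The balance of both STAG genes was therefore taken within each library, where no scaling between libraries enters. The count of Stag2 divided by that of Stag1 was 0.923, 0.752 and 0.852 in controls and 0.687, 0.582 and 0.720 after IAA. All 3 depleted ratios lay below all 3 control ratios. How often ratios of other gene pairs separate in this way was not computed. The mean log2 ratio went from -0.25 ± 0.15 to -0.60 ± 0.16 (SD, n = 3), a difference of -0.35 (exact two-sided permutation p = 0.1, adjusted over 3 ratios 0.15). This p is the smallest that 3 libraries against 3 can give, so the design cannot pass 0.05. Within the pairs the difference was -0.43, -0.37 and -0.24 (exact two-sided sign-flip permutation p = 0.25, again the smallest possible). Transcript lengths were not used here, so the ratio can be compared between groups but does not say which paralog has more transcripts.

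**Figure D2:**
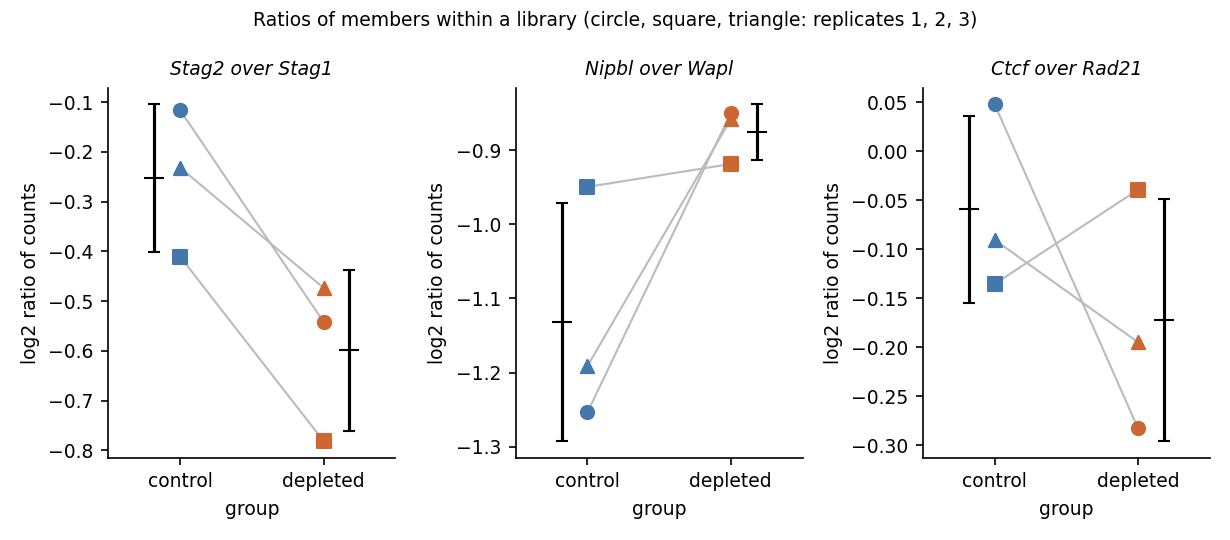
Log2 ratios of counts within each library for Stag2 over Stag1, Nipbl over Wapl and Ctcf over Rad21, with lines joining libraries of one replicate number and black bars for the mean and SD of each group (n = 3). The depleted points lie below all controls for Stag2 over Stag1, and above all controls for Nipbl over Wapl. For Ctcf over Rad21 depleted replicate 2 lies among the controls, and the depleted points of replicates 1 and 3 lie below them.

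Neither loader gene was called in either edgeR fit. Nipbl, which encodes the large loader subunit that stimulates the ATPase of the ring (chromosome 15, 8289824 to 8465315), had 183, 299 and 188 CPM in controls and 220, 271 and 195 CPM after IAA. The control of replicate 2 was the highest library and those of replicates 1 and 3 the lowest. The paired edgeR fit gave a log2 fold change of 0.057 (SE 0.086, adjusted p = 0.730), with a 95% interval from -8.57% to 18.3%.

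Mau2, the partner that stabilises NIPBL (chromosome 8, 70014527 to 70042734), had 177, 172 and 189 CPM in controls and 188, 211 and 215 CPM after IAA. It was higher in all 3 pairs, as were 24.2% of all genes, and a single value, that of depleted replicate 1, lay inside the control range. The group means, 179 ± 8.89 and 205 ± 14.3 CPM (SD, n = 3), differed by more than either SD. Its log2 fold change was 0.19 in both edgeR fits (adjusted p = 0.669 unpaired and 0.132 paired), so it was not called. The paired 95% interval ran from 1.44% to 27.9%.

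Wapl, the releasing factor that opens the ring (chromosome 14, 34672379 to 34747983), had 437, 577 and 430 CPM in controls and 397, 511 and 353 CPM after IAA. Each depleted library lay below the control of its number, with log2 differences of -0.14, -0.17 and -0.29. The paired edgeR fit gave -0.20 (SE 0.069) and did not call it (adjusted p = 0.0779), whereas DESeq2 with the block did (adjusted p = 0.0441). The paired edgeR interval ran from -21.5% to -3.39%.

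Pds5a, whose protein sits on RAD21 and works in release with WAPL and in cohesion with other partners (chromosome 5, 65605719 to 65698236), had 395, 503 and 387 CPM in controls and 415, 551 and 389 CPM after IAA. All 3 pair differences were above 0, the smallest of them 0.0098 on the log2 scale. Paired, the edgeR log2 fold change was 0.071 (SE 0.068, adjusted p = 0.556).

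The ratio of Nipbl to Wapl sets the loader gene against the release gene within a library. It was 0.419, 0.518 and 0.438 in controls and 0.555, 0.529 and 0.552 after IAA, again with no overlap. The log2 difference was 0.26, and it was 0.40 and 0.33 in pairs 1 and 3 but 0.031 in pair 2 (exact two-sided permutation p = 0.1 over libraries, adjusted 0.15). The depleted libraries varied less (SD 0.038) than the controls (SD 0.16). Among single genes, the CPM of the groups failed to overlap in 11.8% (lower) and 6.94% (higher) of all tested. Separation of 3 single-gene values from 3 is thus common in these libraries, and the share for ratios between genes was not computed.

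Ctcf (chromosome 8, 105636474 to 105682922) had 390.9, 390.0 and 371 CPM in controls and 341, 430 and 299 CPM after IAA. The controls lay close together, at 384 ± 11.5 CPM, and the depleted libraries spread to both sides of them, at 357 ± 66.9 CPM (SD, n = 3). Paired, the edgeR log2 fold change was -0.12 (SE 0.087, adjusted p = 0.404). The log2 ratio of Ctcf to Rad21 was 0.048, -0.14 and -0.090 in controls and -0.28, -0.039 and -0.19 after IAA. Depleted replicates 1 and 3 lay below all controls and replicate 2 among them (difference -0.11, exact two-sided permutation p = 0.3).

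**Figure D3:**
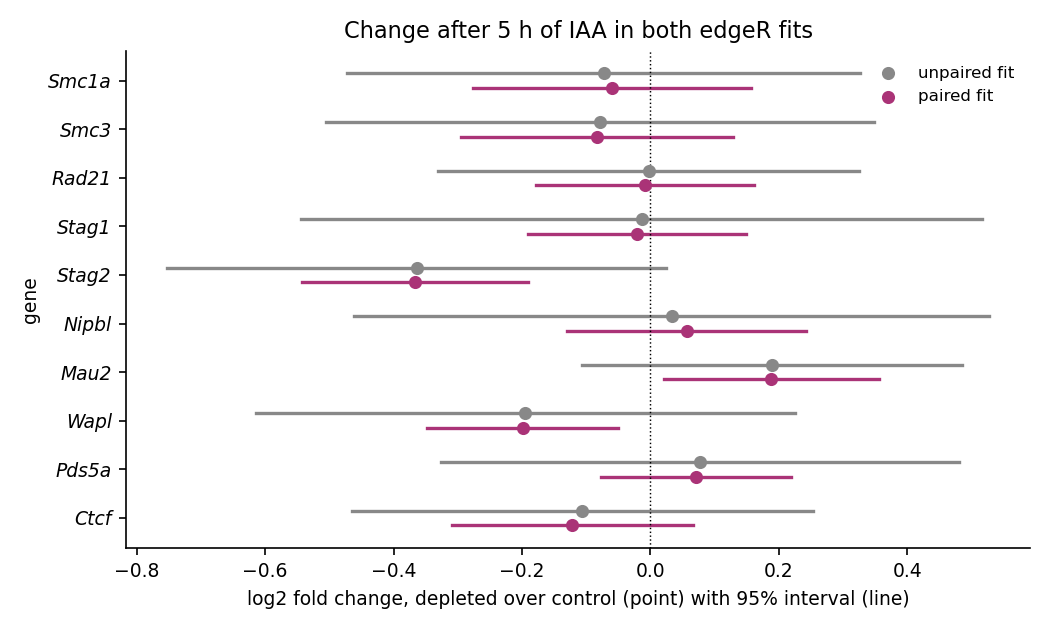
Log2 fold change of each member, depleted over control, with its 95% interval, in the unpaired edgeR fit (grey) and in the paired fit (purple). The paired interval of Stag2 lies furthest from 0, those of Mau2 and Wapl also exclude 0 without passing the adjustment over all genes, and every unpaired interval includes 0.

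For the 9 members that the paired fit did not call, its 95% intervals together reached from -21.5% to 27.9%. Without pairing, the intervals of the 10 members reached from -40.6% to 44.1%. These bounds are the extremes of intervals that each hold for a single gene. They have no joint 95% coverage over the members, and so do not exclude a larger change in any of them. The median standard error of the members was 0.18 unpaired and 0.080 paired, against 0.31 and 0.20 for all genes tested. In the RefSeq gene table, Smc1a overlaps Ribc1 and Gm15267, Rad21 overlaps Gm52217, Stag1 overlaps Gm8661 and Gm3081, and Nipbl overlaps LOC102634078. Wapl overlaps 5830448L01Rik, Pds5a overlaps Gm24399 and Ctcf overlaps Gm5914, Gm5915 and Gm33578. The strand used in counting is not given in the sources used here, so reads of such neighbours cannot be told apart from those of the members. Estimated counts can also divide reads between similar paralogs such as Stag1 and Stag2.

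For 8 of the 10 members, replicate 2 stood further from the other libraries than the depleted group did from the controls. In log2 CPM, the mean of both replicate 2 libraries exceeded that of the other 4 by 0.62 for Stag1, 0.54 for Nipbl, 0.43 for Wapl, 0.41 for Pds5a, 0.37 for Smc3 and 0.36 for Stag2. The excess was 0.33 for Smc1a, 0.23 for Ctcf and 0.19 for Rad21, and Mau2 alone lay at or below 0, at -0.011. The order largely followed genomic span, from the 28.2 kb of Mau2 and the 30.9 kb of Rad21 to the 175.5 kb of Nipbl and the 360.8 kb of Stag1. Spearman's rho was 0.842 over the 10 genes, which share the same 6 libraries. Over the 15293 of the 17573 tested genes that have a span in the RefSeq table, the median excess rose from -0.28 for spans under 10 kb to -0.075 for 10 to 30 kb, 0.12 for 30 to 100 kb and 0.13 for 100 kb or more. The part of this excess in any result was not tested. Without replicate 2 the paired log2 fold change of Stag2 was -0.38.

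Over the same 15293 genes the change after IAA also went with span, in the opposite direction. The median paired log2 fold change was 0.14 under 10 kb, with 2.42% of genes called lower, and 0.036 at 10 to 30 kb, the class of Mau2, with 9.31% called lower. Among the 10 members, Spearman's rho between span and paired log2 fold change was -0.2, again a description. The class of 30 to 100 kb, which holds Smc1a, Smc3, Rad21, Wapl, Pds5a and Ctcf, had a median paired log2 fold change of -0.070 over its 3865 genes, and 13.9% of them were called lower. The class of 100 kb or more, which holds Stag1, Stag2 and Nipbl, had a median of -0.13 over 1738 genes, with 12.6% called lower. Stag2 lay below this median and the longer genes Nipbl and Stag1 above it. The part of span in the fall of Stag2 was not tested.

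**Figure D4:**
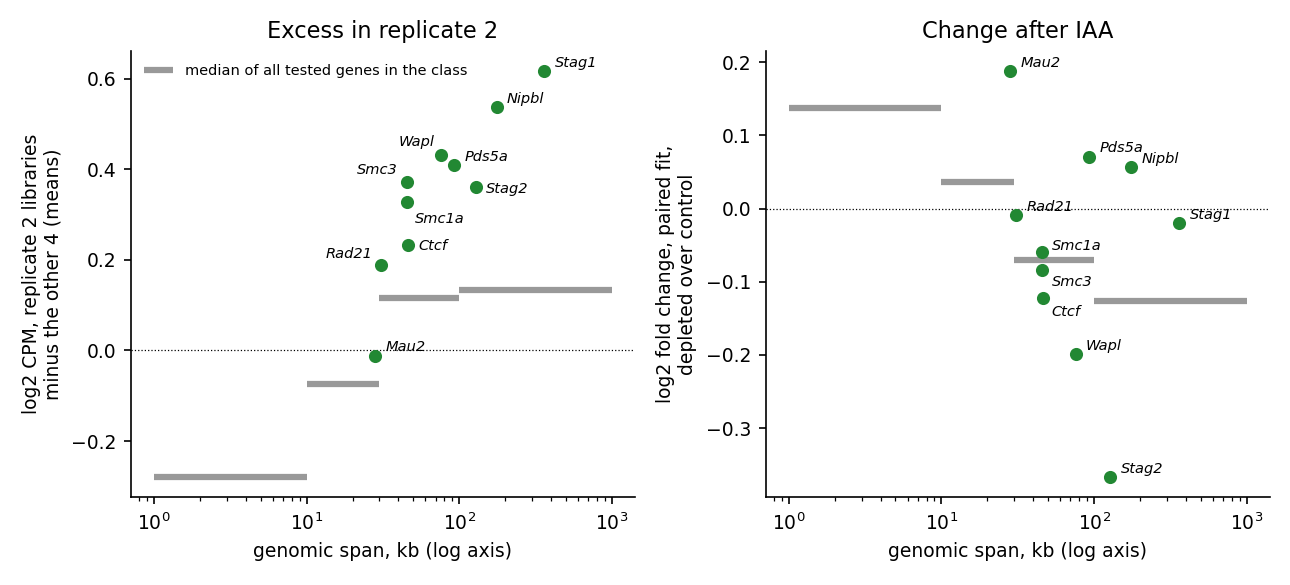
Excess of replicate 2 in log2 CPM (left) and paired log2 fold change after IAA (right) against genomic span in kb on a log axis, with a green point for each member and grey bars at the median of all tested genes in each span class. The excess largely climbs with span from Mau2 to Stag1. The class medians of the change after IAA fall with span, from 0.14 to -0.13, and the members scatter around them.

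Labelled RNA depends on transcription from the genes' start sites, though not on that step alone. The 250 bases before each listed start were read from the RefSeq promoter table of GRCm38.p6, which matched 7 of the 10 members in 8 windows. Rad21, Nipbl and Stag2 had no window, so the member called in the paired edgeR fit is not covered here. In 4 windows the listed start lies inside the gene interval given above: by 64 bases for Ctcf, 1549 for Wapl, 13221 for the second window of Mau2 and 45739 for Stag1. Those windows belong to internal transcript starts, and which start was used in these cells was not tested. They were CpG-rich, apart from a second window of Mau2 with 1 CpG: the others held 16 (Smc1a) to 44 (Pds5a) CpG dinucleotides, against a median of 6.0 over 32851 windows. The letters GGGCGG, the core of the GC box, were found on either strand in 7 of the 8 windows, which covered all 7 matched genes. The share was 32.7% over all windows and 76.9% over the 8356 windows with at least 16 CpG, so GC boxes are common in windows of this kind. The letters CCAAT, the core of the CCAAT box, were found in 3 of the 8 windows, those of Smc1a, Stag1 and Wapl. The share was 33.8% over all windows and 30.8% over those with at least 16 CpG. The windows of Stag1 and Wapl are shown because both genes enter the ratios above and both carry both motifs. Capitals mark GGGCGG or CCAAT on either strand, and a match is a description of letters and not of binding. Both belong to the internal starts named above. They lie at chr9:100643198-100643447 and chr14:34673678-34673927, both on the plus strand, 5' to 3'.
Stag1: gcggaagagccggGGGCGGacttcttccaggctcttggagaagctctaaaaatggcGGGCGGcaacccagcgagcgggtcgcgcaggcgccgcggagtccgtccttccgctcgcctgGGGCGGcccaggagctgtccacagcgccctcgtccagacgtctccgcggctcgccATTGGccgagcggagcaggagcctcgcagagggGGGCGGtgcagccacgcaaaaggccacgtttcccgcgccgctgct
Wapl: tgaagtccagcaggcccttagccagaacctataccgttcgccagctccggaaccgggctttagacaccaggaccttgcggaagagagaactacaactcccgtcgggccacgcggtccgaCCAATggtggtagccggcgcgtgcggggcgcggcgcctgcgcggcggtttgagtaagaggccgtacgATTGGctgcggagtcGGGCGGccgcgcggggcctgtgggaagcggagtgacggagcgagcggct
The Stag1 window holds 4 GGGCGG matches and 1 CCAAT match, and the Wapl window 1 and 2.

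Genes that work with or beside cohesin were described through 5 lists of 44 genes, of which 42 were tested. The unpaired edgeR fit called 0 of the 42, with 4 at an unadjusted p under 0.05, against 1914 of all 17573 genes. DESeq2 without the block also called 0. The paired edgeR fit called 6, or 14.3%, against 12.9% of all genes, with 3 lower and 3 higher (7.9% and 4.96% of all genes). Of the 15 regulators of cohesin, 1 was called in the paired fit. Pttg1, which encodes securin, the inhibitor of separase, had 7.46, 15.1 and 14.9 CPM in controls and 11.7, 22.8 and 24.4 CPM after IAA. It rose in the paired fit, by 0.65 on the log2 scale (SE 0.17, edgeR adjusted p = 0.0253), and lost the call when any replicate pair was omitted (adjusted p 0.0719 to 0.157). Esco2, an acetyltransferase of SMC3, had 202, 280.1 and 155 CPM in controls and 162, 268 and 116 CPM after IAA, lower in all 3 pairs. DESeq2 with the block called it (adjusted p = 0.0419), and the paired edgeR fit did not (-0.27, SE 0.084, adjusted p = 0.0574). Chtf8, a subunit of an alternative clamp loader that helps cohesion, was picked after its values were seen: it had 234, 226 and 250.5 CPM in controls and 142, 47.5 and 145 CPM after IAA. These groups did not overlap, yet neither edgeR fit called it (adjusted p = 0.276 unpaired and 0.280 paired), and its interval overlaps that of Derpc.

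The SMC5/6 complex, a relative of cohesin that acts in DNA repair, had 3 of 9 genes called in the paired fit. Of these, 2 were lower and 1 was higher, where 7.9% of all genes were called lower and 4.96% higher. With so few genes, no enrichment can be read from this count. Slf1, which helps bring SMC5/6 to damaged DNA, had 27.4, 37.2 and 35.9 CPM in controls and 13.6, 24.5 and 16.6 CPM after IAA, with no overlap. It fell by 0.90 on the log2 scale (SE 0.15, paired edgeR adjusted p = 0.00250). Its partner Slf2 went from 193, 278 and 210 CPM to 137, 216 and 147 CPM, a fall of 0.46 (SE 0.076, paired edgeR adjusted p = 0.00201). Both calls were kept without any of the 3 pairs. Nsmce3, a subunit of the complex, went from 29.7, 15.9 and 24.4 to 37.1, 31.2 and 38.3 CPM and rose by 0.64 (SE 0.15, paired edgeR adjusted p = 0.0161). Nsmce3 lies in the interval of Fam189a1, Slf2 overlaps Gm25482 and 4930414N06Rik, and Slf1 overlaps no listed gene. Nsmce3 was not called without replicate 2 (0.0917) or replicate 3 (0.0927). The core genes Smc5 and Smc6 had paired log2 fold changes of 0.076 and 0.018, neither of them called.

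Condensin, which compacts mitotic chromosomes, had 0 of 8 genes called in either edgeR fit or by DESeq2 with or without the block. Of all genes, the unpaired edgeR fit called 0.791% and the paired one 12.9%. DESeq2 called 3.65% without the block and 2538 of 17573 with it. With 8 genes, a count of 0 does not set condensin apart from these shares. At an unadjusted p under 0.05 it had 0 in either edgeR fit, against 1914 (unpaired) and 4899 (paired) of all 17573 genes. Its gene with the smallest unpaired p, Ncaph2, had a log2 fold change of -0.16 (edgeR adjusted p = 0.855). Among the 7 tested CTCF partners and competitors, Patz1, a zinc finger gene, went from 213, 181 and 208 to 262, 229 and 256 CPM and rose by 0.31 in the paired fit (SE 0.072, edgeR adjusted p = 0.0131). It overlaps Gm12592 and Gm11944. Its groups did not overlap, and the call was lost without replicate 1 (0.0633) or replicate 3 (0.0716). Yy1, which also bridges promoters and enhancers, had a paired log2 fold change of 0.11 (edgeR adjusted p = 0.388).

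Of the 4 meiotic and germline paralogs of cohesin subunits, 3 were tested. Smc1b, the meiotic counterpart of Smc1a, had 3.04, 22.7 and 18.4 CPM in controls and 1.47, 7.30 and 7.65 CPM after IAA. It fell by 1.34 on the log2 scale in the paired fit (SE 0.23, edgeR adjusted p = 0.00250), a call kept without any of the 3 pairs, while its groups overlapped because both replicate 1 libraries were low. The gene overlaps Fam118a and Gm10923. Stag3, the meiotic STAG gene, was detected at 148, 236 and 228 CPM in controls and 135, 205 and 216 CPM after IAA and was not called (paired edgeR adjusted p = 0.264). It overlaps Gal3st4 and Gpc2. Rad21l had 0 counts in every library, where 3 counts would be 0.116 to 0.209 CPM, a limit that covers counting error only.

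**Figure D5:**
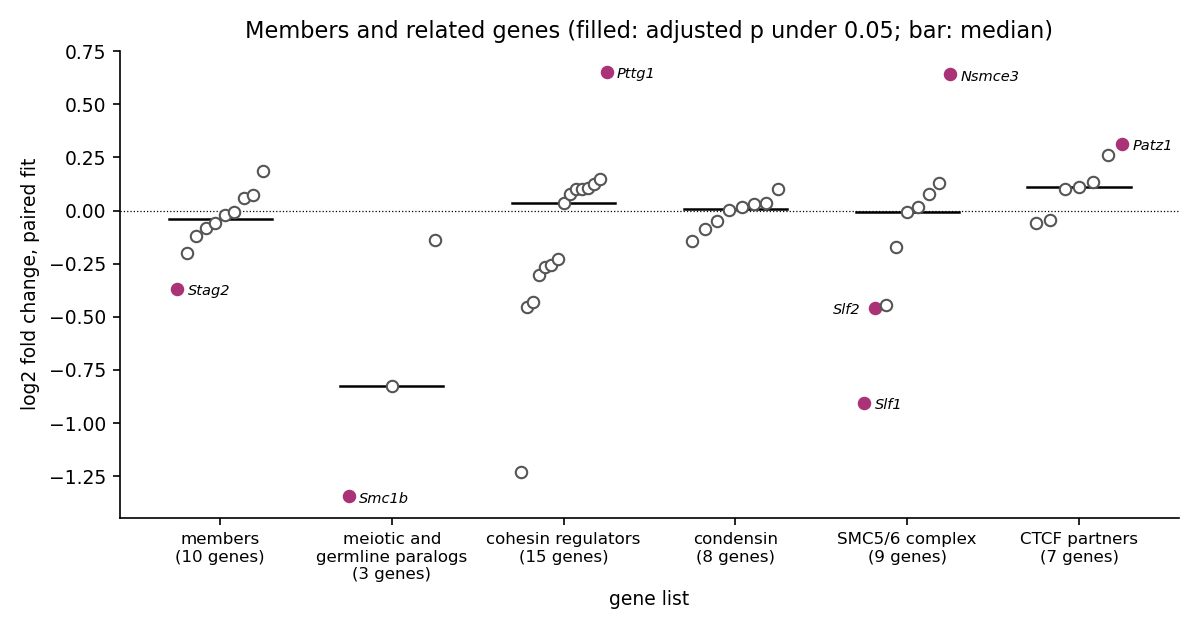
Paired log2 fold changes of the members and of the genes in each related list, with filled points for an adjusted p under 0.05 and a black bar at the list median. Stag2 is the filled member, Slf1 and Slf2 lie below 0 and Nsmce3 above 0 among SMC5/6 genes, and condensin has no filled point.

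Genes of like pattern were sought over the 6 libraries with the mean of the members' standardised log2 CPM, among 7649 other genes with a mean of at least 20 CPM. This profile was highest in control replicate 2 (0.96) and depleted replicate 2 (0.96) and lowest in depleted replicate 3 (-0.88). Pearson's r of a member with the mean of the other 9 was 0.964 for Stag1, 0.923 for Pds5a, 0.918 for Wapl, 0.893 for Smc3 and 0.888 for Nipbl. It was 0.865 for Smc1a, 0.838 for Rad21, 0.716 for Ctcf, 0.651 for Stag2 and -0.308 for Mau2, which did not share the pattern. The genes closest to the profile were Gm49599 (r = 0.996), the heat shock factor gene Hsf2 (0.996), the deSUMOylating isopeptidase gene Desi2 (0.996), the chromatin reader gene Ing3 (0.996) and the condensin gene Ncaph (0.994). With 6 libraries, 625 genes had an r above 0.9, so an r above that bound is common here. The genes named are the top of a ranking of 7649.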

How the data were processed

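The deposited table holds estimated counts per gene as whole numbers, for 55401 rows named by Ensembl identifier and symbol; 6 columns were matched to sample titles. The submitters' processing notes name the build mm10 and the tools StringTie 2.2.1, HISAT2 2.2.1 and DESeq2 1.42.0 without roles. Estimated counts were used as deposited.

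The analysis used edgeR 4.0.16 under R 4.3.3: filterByExpr, TMM scaling and the robust quasi-likelihood test over all 17573 genes kept, with Benjamini-Hochberg adjustment at 0.05. The standard error comes from the fold change and its F statistic, and 95% intervals from its t distribution. Fits were tested on simulated counts that held no replicate effect and only changes larger than any member's. Small changes in the paired fit were therefore not checked. CPM are TMM-normalised, and 0.5 was added before logs of pair differences and profiles; marker sums are per total counts. DESeq2 1.42.0, other scalings, filters and omitted libraries were alternatives.

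Deviations from group means (log2 CPM) correlated at 0.364, 0.499 and 0.404 between libraries of the same number and at -0.318 to -0.016 otherwise, and same-numbered libraries were treated as pairs; negative values follow in part from centring. No source used here says that replicates were separate cultures, and the p-values may therefore measure technical spread.

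Named genes are the members, all related genes called in either fit, otherwise the gene of smallest p in a list, overlapping genes, and the 5 genes of closest pattern. Outside this rule, Smc5, Smc6, Yy1, Stag3, Rad21l, Esco2 and Chtf8 were named after their values were seen. The members and lists were chosen with earlier results of these data known. Promoter motifs were chosen after the data were seen. Coordinates are from RefSeq's GRCm38.p6 gene table, the assembly that mm10 names.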

Additional observations from a re-analysis of the deposited data

How the results depend on the processing

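The count of members called was 0 in the unpaired edgeR fit and under DESeq2, RLE size factors, upper quartile scaling, no filter, a filter of 1 CPM in all libraries and, added after seeing the data, without both replicate 2 libraries. It was 1 with the replicate block and 2 for DESeq2 with the replicate block, 0 when any single library was omitted from the unpaired fit, and 0, 1 and 1 when pair 1, 2 or 3 was omitted from the paired one. For related genes it was 0 in the same settings, 6 with the replicate block, 7 for DESeq2 with the replicate block and 4, 8 and 3 without pair 1, 2 or 3. Over all genes tested, the unpaired fit called 0 or 1 without any single library and 0 without both replicate 2 libraries. A count of 0 members or related genes could hardly differ there. Under the other scalings and filters it called 126 to 180 genes. Without pair 1, 2 or 3 the paired fit called 1418 of 17467, 1428 of 18022 and 949 of 18008 genes. With all pairs the paired fit called 2259 of 17573, and DESeq2 with the replicate block 2538. Stag2, Wapl, Mau2 and Ctcf kept their direction in all 17 alternatives. Rad21, near 0, turned to 0.012 with DESeq2, 0.0070 with its block and 0.012 with RLE factors, and Smc1a to 0.019 without both replicate 2 libraries. Without single libraries, unpaired log2 fold changes ran from -0.19 to 0.091 for Smc1a, -0.20 to 0.064 for Smc3, -0.079 to 0.091 for Rad21, -0.26 to 0.21 for Stag1, -0.11 to 0.30 for Nipbl and -0.088 to 0.21 for Pds5a. They ran from -0.50 to -0.24 for Stag2, -0.36 to -0.044 for Wapl, -0.26 to -0.0028 for Ctcf and 0.15 to 0.25 for Mau2, Wapl coming closest to 0 without control replicate 2 and Ctcf without depleted replicate 3; paired, from -0.39 to -0.35, -0.23 to -0.17, -0.25 to -0.043 and 0.13 to 0.24. In the paired fit the sign turned for Nipbl without pair 1 (-0.050), for Smc1a without pair 2 (0.022) and, without pair 3, for Smc3 (0.036), Rad21 (0.075) and Stag1 (0.011). None of these values was called, so these members have no settled direction. The ratio differences kept their sign, at -0.42 to -0.25 for Stag2 over Stag1, 0.20 to 0.35 for Nipbl over Wapl and -0.18 to -0.058 for Ctcf over Rad21. The cause of these shifts was not tested.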
